A study of Homo sapiens with 8 samples.

Results

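The genes described here are the 108 long intergenic noncoding RNAs (lincRNAs) that were abundant in the input RNA of MOLM-13 cells, of 58302 genes listed in the deposited tables. The line MOLM-13 grows from an acute myeloid leukaemia and is known to carry the fusion MLL-AF9 and an FLT3 internal tandem duplication. Groups differ in a short hairpin RNA, either the control sh-NC or sh-circMYBL2, whose target circMYBL2 is a circular RNA of the MYBL2 locus; no other treatment, time or allele is given. Each hairpin had 2 libraries of ribosome footprints, the RNA stretches that translating ribosomes protect, and 2 libraries of input RNA, so there were 8 libraries in 4 groups. The labels name neither separate cultures nor separate clones, so p-values measure only the spread between these libraries, which may be technical. Members were selected on level: a gene was taken when the tables call its biotype lincRNA and its mean over the 4 input RNA libraries was at least 5 FPKM, a read density scaled by gene length and library total. Names starting SNHG and DANCR, GAS5, ZFAS1 and EPB41L4A-AS1, which carry small nucleolar RNAs in their introns, were left out. Of 7493 rows called lincRNA, 2751 were above 0 in a library of input RNA and 113 reached the mean of 5 with those host genes included. Level chose the members, so their levels are a description.

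Long noncoding RNAs are transcribed and spliced like messenger RNAs but are not known to be templates for a long protein. Some stay at their place in the nucleus and build or regulate nuclear bodies, some bind proteins in the cytoplasm, and some are cut in the nucleus to release microRNAs. PVT1 and CCDC26, for example, lie near the oncogene MYC, and MIR155HG is induced when blood cells are activated.

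Sequences are shown first for the microRNAs that members give rise to, since the hairpin cut from a host and the host itself were counted as separate genes, and for the promoters of 3 called members: LINC00662, with the smallest adjusted p, MIR155HG, a microRNA host that fell, and PCAT18, which rose. Mature forms from 4 hosts are shown, matched by position in the RefSeq tables (GRCh38.p14). The mature microRNAs are written 5′ to 3′ with the seed, bases 2 to 8, in capitals. MIR222HG holds a pair with 1 seed, MIR181A1HG a second such pair, the host called AL158152.1 (MIRLET7A1HG in RefSeq) 3 members of the let-7 family, and MIR34AHG a single microRNA.
miR-221-3p: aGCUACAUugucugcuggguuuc
miR-222-3p: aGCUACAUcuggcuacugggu
miR-181a-5p: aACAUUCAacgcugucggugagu
miR-181b-5p: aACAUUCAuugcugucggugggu
let-7a-5p: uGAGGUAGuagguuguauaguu
let-7f-5p: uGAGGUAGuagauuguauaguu
let-7d-5p: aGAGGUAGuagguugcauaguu
miR-34a-5p: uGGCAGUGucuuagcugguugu
The seed GCUACAU is shared by miR-221-3p and miR-222-3p, ACAUUCA by the miR-181 pair and GAGGUAG by the let-7 members.

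The promoters run from 250 bases before to 50 bases after the RefSeq start, on the strand of the gene. Capitals mark matches on either strand to any of 5 motifs: TATAAA (the TATA box), CCAAT (bound by NF-Y), GGGCGG (bound by SP1), CACGTG (the E-box of MYC and its relatives) and TGACTCA (bound by AP-1). Of 27305 promoters of that length in the RefSeq table, 12% hold TATAAA, 35.7% CCAAT, 44.6% GGGCGG, 7.43% CACGTG and 4.92% TGACTCA. No motif overlaps another in these 3 promoters.
LINC00662, chr19:27793891-27794190, minus strand: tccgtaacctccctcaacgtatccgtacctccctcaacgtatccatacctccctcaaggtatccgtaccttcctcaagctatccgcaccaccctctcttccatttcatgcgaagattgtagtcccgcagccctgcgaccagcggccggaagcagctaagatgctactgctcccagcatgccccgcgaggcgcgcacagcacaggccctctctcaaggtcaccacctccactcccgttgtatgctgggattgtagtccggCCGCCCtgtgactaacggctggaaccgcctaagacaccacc
MIR155HG, chr21:25561895-25562194, plus strand: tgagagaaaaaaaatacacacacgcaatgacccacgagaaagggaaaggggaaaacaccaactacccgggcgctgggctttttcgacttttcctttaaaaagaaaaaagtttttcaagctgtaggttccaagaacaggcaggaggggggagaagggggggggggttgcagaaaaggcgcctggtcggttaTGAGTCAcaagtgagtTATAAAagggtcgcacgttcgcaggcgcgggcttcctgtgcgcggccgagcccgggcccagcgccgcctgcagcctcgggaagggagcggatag
PCAT18, chr18:26703589-26703888, minus strand: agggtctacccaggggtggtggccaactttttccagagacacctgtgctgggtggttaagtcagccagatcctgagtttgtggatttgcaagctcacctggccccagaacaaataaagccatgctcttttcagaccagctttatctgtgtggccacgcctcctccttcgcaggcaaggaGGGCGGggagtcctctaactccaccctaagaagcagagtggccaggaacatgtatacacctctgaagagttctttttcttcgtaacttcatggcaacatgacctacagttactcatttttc
LINC00662 and MIR155HG were lower with sh-circMYBL2 and PCAT18 was higher. The MIR155HG promoter has 1 TATAAA and, on the other strand, 1 TGACTCA (written TGAGTCA here). The LINC00662 and PCAT18 promoters each have 1 GGGCGG (in LINC00662 on the other strand) and none of the other motifs. Promoters of 27 members were found; 2 of them hold TATAAA, 10 CCAAT, 11 GGGCGG, 1 CACGTG and 2 TGACTCA. A match shows only that these letters stand there.

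The members ran from 5.06 to 8467 FPKM around a median of 9.995. There were 54 members at 5 to 10 FPKM, 34 at 10 to 20, 15 at 20 to 50 and 5 at 50 or more. Their counted lengths ran from 146 to 28487 nucleotides, with a median of 1295. Clone-based names such as AC006504.1 belong to 73 of them and symbols to 35. RefSeq entries were matched for 47, of which 45 are filed as long noncoding RNA and 2 as transcribed pseudogenes, and none has a RefSeq protein. At the edge of the rule, AC016957.2 (mean 5.06 FPKM), AC004951.1 (5.06) and AC123768.4 (5.12) lay just inside, and AL357552.2 (4.97), LINC01473 (4.97) and AC026979.4 (4.90) just outside.

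Reads on genes numbered 13505877 to 14604515 per library of input RNA and 80145 to 715019 per library of footprints. Footprint depth moved with the hairpin: protein-coding reads were 33705 and 88687 for sh-NC but 125750 and 584133 for sh-circMYBL2, where the columns have no replicate number and are named a and b here. The share of microRNAs in footprint reads was 42.7% and 57.2% for sh-NC, then 32.8% for a and 12.2% for b. Of 10 myeloid markers, 9 had a mean of at least 1 FPKM of input RNA with either hairpin and CD68 did not (0.0658). The summed level of these 10 was 798 and 837 FPKM under sh-NC and 985 and 1029 under sh-circMYBL2, mostly from LYZ. In the input RNA libraries the 5 erythroid markers summed to at most 0.0863 FPKM and the 5 lymphoid markers to at most 1.12. The 6 markers of adherent cells summed to 38.0 to 40.0 there, of which VIM had a mean of 37.6. The part of these levels in the results below was not tested. MYBL2, the host gene of the circle, was at 1.46 and 1.15 FPKM under sh-NC and 3.53 and 3.72 under sh-circMYBL2 (log2 change 1.01, SE 0.10, limma with Benjamini-Hochberg adjustment, adjusted p = 0.0209). No row was matched to circMYBL2 itself, so the hairpin's effect on its target has no value here.

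MALAT1 (ENSG00000251562, chromosome 11, 65497738 to 65506516 in GRCh38.p14), an RNA of nuclear speckles, held most of the members' reads. It was at 8629 and 8391 FPKM with sh-NC and at 8588 and 8261 with sh-circMYBL2, rank 6 among all 58302 genes. It took 7.24% to 7.65% of the reads of each input RNA library. The other 107 members together took 0.456% to 0.533%. The next by level was AC084033.3 (GIHCG in RefSeq) with a mean of 143 FPKM, followed by AC125603.2 with 87.2, NORAD with 78.7, NEAT1 with 69.2, CCDC26 with 46.9 and PURPL with 39.8. AC005838.2 (32.2), AC234772.3 (31.3), AC246817.1 (31.1), AC125603.1 (30.4) and PCAT18 (30.1) completed the 12 highest.

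The first comparison asked which members differed in input RNA between the hairpins. With sh-circMYBL2, 23 of the 108 abundant lincRNAs fell (21.3%) and 5 rose (4.63%), by limma on log2(FPKM + 1) and an adjusted p under 0.05 over all genes. Over the 12489 genes tested 8.88% were called, 3.96% lower and 4.92% higher. In bulk RNA, fewer cells of a type and less RNA per cell cannot be told apart. The median change of the members was -0.13 on the log2 scale, beside -0.00 for all genes tested, and 77 of 108 lay below 0. The groups did not overlap for 77 members, 58 of them lower, beside 60.7% of all genes tested. An unadjusted p under 0.05 was reached by 49 members, 12 higher and 37 lower, beside 29.2% of all genes tested. All 28 called members were among those 77. The falls ran from 0.34 to 0.97 on the log2 scale, with ratios of means from 0.456 to 0.767, and the rises from 0.31 to 0.65.

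**Figure D1:**
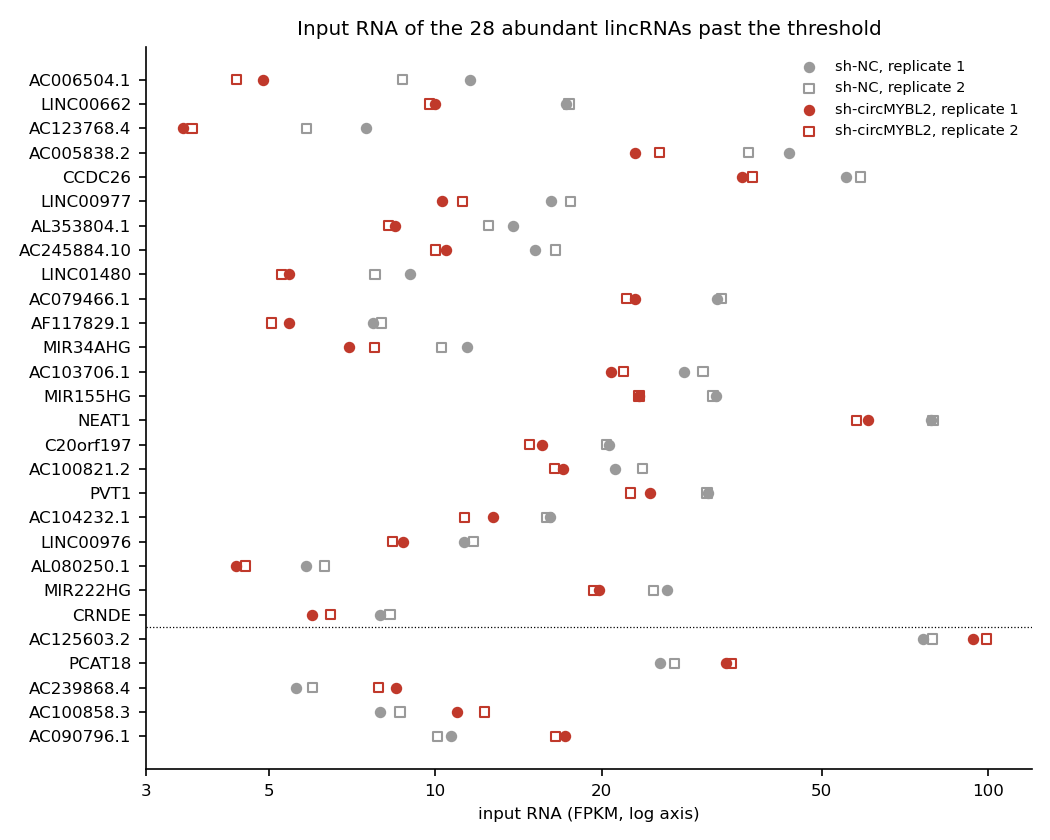
Input RNA in FPKM on a log axis for each of the 28 abundant lincRNAs past the threshold, 1 point per library (circles replicate 1, squares replicate 2; grey sh-NC, red sh-circMYBL2), with the 23 that fell above the dotted line and the 5 that rose below it. In every row both red points lie on the same side of both grey points, as for LINC00662 at 17.2 and 17.4 FPKM against 9.98 and 9.78.

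The share called lower went up with level. Among lincRNAs without the hosts of small nucleolar RNAs, 11.9% of 270 were called lower at a mean of at least 2 FPKM, 21.3% of 108 at 5, 29.6% of 54 at 10 and 40% of 20 at 20. Protein-coding genes at the same minimum means were called lower in 4.66% of 7731, 5.82% of 5289, 6.96% of 3190 and 8.75% of 1566. Shares called higher were 2.59% to 10% in the lincRNAs and 6.73% to 11% in the protein-coding genes. These shares are a description, and the difference between the classes was not tested. LincRNAs with a mean of 1 to 5 FPKM had 3 higher and 9 lower of 346, or 3.47% called. The 19 host genes of small nucleolar RNAs with a mean of at least 5 had 1 higher (5.26%) and 3 lower (15.8%), or 21.1% called. Called members had a median length of 1853 nucleotides and, in their shallowest input RNA library, a median of 237 reads, against 925 nucleotides and 122.5 reads for the 80 members not called. Among the 67 members with at least 100 reads in every input RNA library, 19 were lower and 3 higher.

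**Figure D2:**
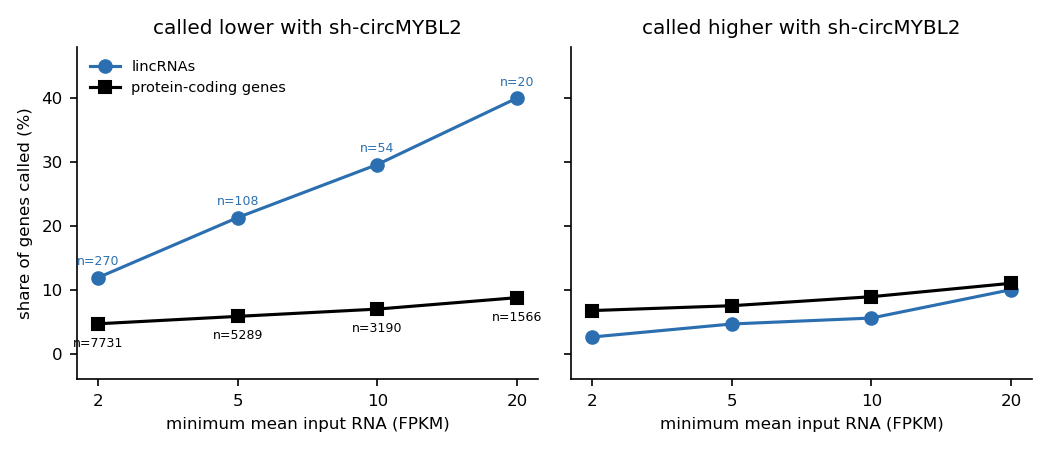
Share of genes called lower (left) and higher (right) with sh-circMYBL2, in percent, at minimum means of 2, 5, 10 and 20 FPKM of input RNA, for lincRNAs (blue circles) and protein-coding genes (black squares), with the number of genes beside each point on the left. The blue line of lower calls climbs from 11.9% to 40% while the black one goes from 4.66% to 8.75%.

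Among the nuclear RNAs MALAT1, NEAT1, JPX and FTX are members, and NEAT1 was the 1 that fell. NEAT1 (chromosome 11), the scaffold of paraspeckles, was at 78.8 and 79.5 FPKM with sh-NC and at 60.7 and 57.9 with sh-circMYBL2. The groups were apart and close within themselves, and NEAT1 fell by 0.41 on the log2 scale (SE 0.04, limma adjusted p = 0.0166). MALAT1, its neighbour on the chromosome, changed by -0.01 (95% interval -0.20 to 0.17, adjusted p = 0.907), and its groups overlapped. JPX, an RNA of the X-inactivation centre, was at 8.81 and 8.37 FPKM under sh-NC and 6.98 and 6.38 under sh-circMYBL2, a change of -0.32 that missed the threshold (adjusted p = 0.0603). FTX, from the same centre, changed by -0.21 (adjusted p = 0.200). Of the 11 rows searched for nuclear RNAs in any biotype, 5 were tested and NEAT1 was the one called.

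NORAD, a cytoplasmic RNA that binds Pumilio proteins, was at 79.8 and 78.9 FPKM under sh-NC and 78.7 and 77.3 under sh-circMYBL2. Its change was -0.02 (SE 0.03, 95% interval -0.10 to 0.06, adjusted p = 0.643). Of 3 tested cytoplasmic decoys and scaffolds, NORAD, OIP5-AS1 and CYTOR, none passed. GIHCG stayed between 136 and 150 FPKM in the 4 libraries, a change of -0.00 (95% interval -0.19 to 0.18). PURPL, an RNA induced by p53, went from 41.3 and 40.9 FPKM to 39.7 and 37.1, a change of -0.10 that did not pass (adjusted p = 0.241).

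**Figure D3:**
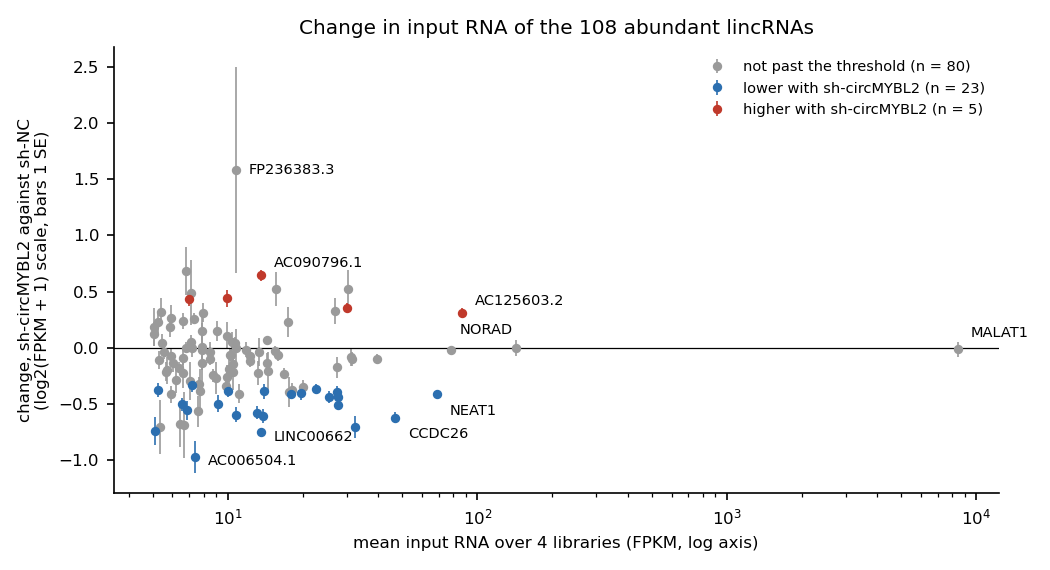
Change in input RNA (sh-circMYBL2 against sh-NC, log2(FPKM + 1) scale, bars 1 SE) against mean input RNA in FPKM on a log axis for the 108 abundant lincRNAs; blue points fell, red points rose and grey points did not pass the threshold. Blue points outnumber red ones 23 to 5, MALAT1 and NORAD lie at 0 at the right, and FP236383.3 has the widest bar.

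All 3 members of the list of haematopoietic and leukaemia RNAs fell. CCDC26, a myeloid RNA from a region of chromosome 8 that is gained in some leukaemias, was at 55.3 and 58.8 FPKM under sh-NC and 35.9 and 37.4 under sh-circMYBL2. It fell by 0.62 on the log2 scale (SE 0.05, limma adjusted p = 0.0117), to 0.643 of the sh-NC mean. MIR155HG, the host transcript of miR-155 in activated and leukaemic blood cells, was at 32.2 and 31.8 FPKM with sh-NC and 23.4 in both other libraries. It fell by 0.44 (SE 0.03, adjusted p = 0.0117). PVT1, which lies beside MYC, was at 31.2 and 31.0 FPKM against 24.4 and 22.5 and fell by 0.39 (SE 0.05, adjusted p = 0.0286). LINC-PINT, filed as antisense RNA and so no member, was the other gene of that list that was tested, and it fell by 0.55 (adjusted p = 0.0344). The list names 16 genes found in the tables, and 4 of 4 tested were lower, beside 21.3% of the abundant lincRNAs and 3.96% of all genes tested. The list is small, and PVT1 and CCDC26 lie on the same stretch of chromosome 8, described below.

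Of 5 members named as microRNA hosts, 3 fell and none rose, beside 21.3% lower among all the abundant lincRNAs and 3.96% over all genes tested. MIR155HG, already counted in the list above, is among those that fell. MIR222HG (X chromosome, 45745214 to 45770267), host of the pair with the seed GCUACAU, was at 26.2 and 24.8 FPKM under sh-NC and 19.8 and 19.3 under sh-circMYBL2, and fell by 0.37 (SE 0.04, limma adjusted p = 0.0256). MIR34AHG, host of a microRNA that p53 induces, was at 11.4 and 10.3 FPKM against 6.997 and 7.77 and fell by 0.50 (SE 0.08, adjusted p = 0.0418). MIRLET7BHG changed by -0.00 (95% interval -0.23 to 0.23) and MIR181A1HG by -0.07 (95% interval -0.26 to 0.11), and neither passed. Over every biotype 14 of 61 host genes by name were tested, and the 3 that were called are MIR155HG, MIR222HG and MIR34AHG. This choice went by name, and other members hold hairpins by position. Of these, AL158152.1 (-0.14, limma adjusted p = 0.397) and FTX (-0.21, adjusted p = 0.200) were not called. AL359643.3, which spans MIR3691 on the other strand, was not called either (-0.41, adjusted p = 0.0533). PVT1 and CCDC26, which fell, also hold microRNA genes.

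Several of the hairpins within these hosts were read mainly in the footprint libraries, although input RNA was deeper. MIR3619, within MIRLET7BHG, was the other way, with 20, 28, 10 and 12 reads in input RNA and none in footprints. MIR222 alone held 4272 and 21719 footprint reads in the sh-NC libraries, then 10993 and 12595 in a and b. For sh-NC that was 5.33% (95% exact binomial interval 5.18% to 5.49%) and 7.23% (7.14% to 7.32%) of all reads on genes. For a and b it was 4.93% (4.84% to 5.02%) and 1.76% (1.73% to 1.79%). Such intervals cover counting error only. In input RNA MIR222 had 127 reads in each sh-NC library, and the other pair had 94 and 89. MIR221 had 430, 2263, 2052 and 2006 footprint reads, so that MIR222 outnumbered its neighbour in all 4 libraries. MIR222HG itself had no footprint read in any library. MIR181B1 had 385, 2168, 1942 and 2109 footprint reads and MIR181A1 had 134, 899, 783 and 795. MIRLET7A1 had 32, 177, 112 and 142 reads, MIRLET7F1 had 8, 61, 46 and 77, and MIRLET7D had 12, 38, 21 and 39. MIR34A had none in any of the 8 libraries, and MIRLET7B and MIRLET7A3 are also listed at 0. The mature let-7a-5p sequence is the same in MIRLET7A1 and MIRLET7A3, so its reads cannot be told apart between them. A value of 0 for MIRLET7A3 therefore does not show that this hairpin was absent. None of these hairpins passed in footprints (limma, adjusted p from 0.382 to 0.854 for the 7 named with footprint reads), and the shares above move with the share of all microRNAs in each library.

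A stretch of chromosome 8 held 5 members that fell. It runs from the start of PVT1 to the end of AC103706.1 (ST3GAL1-DT in RefSeq), 127794524 to 133573856 in GRCh38.p14, or 5.78 Mb, and was chosen after the values were seen. In order these were PVT1, LINC00976, LINC00977, CCDC26 and AC103706.1. LINC00976 was at 11.3 and 11.7 FPKM under sh-NC and 8.75 and 8.37 under sh-circMYBL2 and fell by 0.39. LINC00977 was at 16.2 and 17.6 against 10.3 and 11.2 and fell by 0.61. AC103706.1 was at 28.1 and 30.5 against 20.8 and 21.9 and fell by 0.44, with limma adjusted p-values of 0.0219 to 0.0289 for these 3. The other 15 genes tested in the stretch included 1 that was called, ST3GAL1, lower by 0.26 (adjusted p = 0.0417). ST3GAL1 overlaps AC103706.1, and without a stated strand setting their reads cannot be told apart. The protein-coding neighbours ASAP1 (-0.10), EFR3A (0.03), PHF20L1 (-0.03), SLA (0.28) and NDRG1 (0.14) were not called. MYC, just outside, changed by -0.12 (adjusted p = 0.244). AF117829.1 (PARAIL in RefSeq), elsewhere on the chromosome, fell by 0.50 and AC104986.2 (VPS13B-DT) changed by -0.19 (adjusted p = 0.477). Thus 6 of the 7 members placed on chromosome 8 were called lower, beside 21.3% of all the abundant lincRNAs. Only 47 of the 108 members were matched to RefSeq and have a position, so others may lie on this chromosome. Over all 421 genes tested on that chromosome 31 were lower (7.36%) and 36 higher, with a median change of -0.00.

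LINC00662 (ENSG00000261824, chromosome 19, 27790493 to 27793940), whose promoter is shown above, had the smallest adjusted p of the set. It was at 17.2 and 17.4 FPKM under sh-NC and 9.98 and 9.78 under sh-circMYBL2, a fall of 0.75 (SE 0.04, 95% interval -0.86 to -0.65, limma adjusted p = 0.00972). AC006504.5 (LINC02987 in RefSeq) starts at 27793431, inside the span of LINC00662, and runs to 28024969. It was at 6.73 and 6.80 FPKM under sh-NC and 6.68 and 6.86 under sh-circMYBL2, a change of 0.00 (95% interval -0.13 to 0.13). The difference between these neighbours was not tested, their intervals do not meet, and reads from the stretch they share cannot be told apart. LINC00662 was counted over 7958 nucleotides, longer than its RefSeq span, so the extent of that stretch is not known. AC006504.1, which shares the clone name, had the deepest fall of the called members, from 11.5 and 8.72 FPKM to 4.87 and 4.38 (log2 change -0.97, SE 0.14, adjusted p = 0.0367).

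Of the other members that fell, AC079466.1 was at 32.4 and 32.9 FPKM under sh-NC and 22.95 and 22.2 under sh-circMYBL2 (log2 change -0.51, limma adjusted p = 0.0117). AC005838.2 had 43.6 and 36.8 FPKM against 22.95 and 25.4 and fell by 0.71. CRNDE, a locus with a described small protein, was at 7.96 and 8.28 against 5.99 and 6.47 and fell by 0.34 (adjusted p = 0.0493), closest to the threshold of all that passed. The remaining 9, AC123768.4, AL353804.1, AC245884.10, LINC01480, C20orf197, AC100821.2, AC104232.1, AL080250.1 and AF117829.1 fell by 0.38 to 0.74. LINC00926 (-0.38, adjusted p = 0.0504), EBLN3P (-0.35, 0.0550) and AC005261.2 (-0.35, 0.0561) missed the threshold by little.

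The 5 members that rose were AC125603.2, PCAT18, AC239868.4, AC100858.3 and AC090796.1. AC090796.1 rose most, from 10.7 and 10.1 FPKM with sh-NC to 17.1 and 16.5 with sh-circMYBL2 (log2 change 0.65, SE 0.05, limma adjusted p = 0.0121). AC125603.2, the third most abundant member, went from 76.3 and 79.3 to 93.8 and 99.3 FPKM (0.31, SE 0.04, adjusted p = 0.0349). AC125603.1, from the same clone, had 21.6 and 28.1 FPKM against 39.8 and 32.4, a change of 0.53 with a wide spread (SE 0.16, adjusted p = 0.135). PCAT18, first described in prostate cancer, went from 25.5 and 27.1 to 33.6 and 34.3 FPKM (0.36, SE 0.04, adjusted p = 0.0262).

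The nearest protein-coding gene was tested for 27 of the located members, 8 of them called. In 2 of the 8 the neighbour was called in the same direction: KCTD1 beside PCAT18 (0.45, limma adjusted p = 0.0447) and ST3GAL1, which overlaps its member as above. In none was it called in the other. Over all genes tested 8.88% were called. Neighbours were also called beside members that were not: ATP23 beside GIHCG (0.32, adjusted p = 0.0458) and TCF12 beside LINC00926 (-0.33, adjusted p = 0.0275). Whether members and neighbours change together was not tested. RIPK2 beside AF117829.1 changed by 0.12 and MRPL39 beside MIR155HG by 0.05, and neither passed. In all, 9 located members overlap a protein-coding gene, among them AC103706.1 and AL080250.1 of those that fell.

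The calls in input RNA need all 4 libraries. When any 1 was left out, a group had a single library and no call remained in any gene. The 28 kept their direction, but this was fixed in advance, since their groups do not overlap. With voom, a limma fit on read counts weighted by depth, applied to the reads recovered from the tables, 27 of the 28 were called, and 11 members were higher and 33 lower, beside 26.0% of all genes tested.

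The second question was how much of these RNAs was found on ribosomes. Members took 98.3 to 101.7 reads per 1000 protein-coding reads in input RNA but 1.96 and 1.27 in the sh-NC footprint libraries and 2.07 and 1.95 in those of sh-circMYBL2. The share was thus 51.0, 78.5, 48.4 and 51.3 times lower in footprints than in the mean of the input RNA of the same hairpin. MALAT1 set most of this, with 93.2 and 94.3 reads per 1000 in input RNA (mean per hairpin) and 0.541 to 1.11 in footprints, an 84.7-fold to 172-fold difference. Without MALAT1 the members had 5.68 to 6.80 per 1000 in input RNA and 0.733 to 1.22 in footprints, 5.53-fold to 9.18-fold less. LincRNAs with a mean of 1 to 5 FPKM were 1.93-fold to 6.19-fold less. Host genes of small nucleolar RNAs went the other way, at 3.85 to 4.07 per 1000 in input RNA and 6.28 to 49.4 in footprints.

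**Figure D4:**
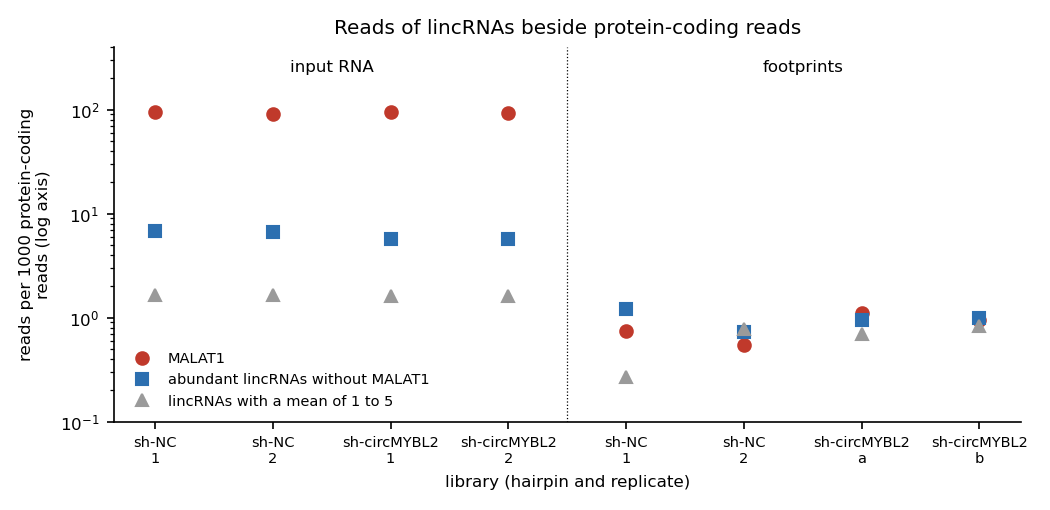
Reads per 1000 protein-coding reads on a log axis in each of the 8 libraries (hairpin and replicate), for MALAT1 (red circles), the other 107 abundant lincRNAs together (blue squares) and lincRNAs with a mean of 1 to 5 FPKM (grey triangles). MALAT1 drops from 91.7 or more in input RNA to 1.11 or less in footprints, while the blue squares drop from 5.68 or more to 1.22 or less.

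Few members had enough footprint reads to be measured one by one. The 4 libraries had 66, 113, 260 and 1139 reads on all members together, of which MALAT1 had 25, 48, 140 and 559. A read was found for 11, 20, 35 and 53 of the 108 members, the order of their protein-coding reads. In 50 members no library had a read, and 6 members had one in every library. At this depth a member without a read is not shown to be free of ribosomes: the limit that a count of 0 allows, 3 reads, came to 36.5 RPM (reads scaled by the table's own library total) in the shallowest library, sh-NC 1, and to 2.69 RPM in the deepest, b. Such limits cover counting error only.

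The ratio of footprint RPKM to input RNA FPKM places members among coding genes of the same tables. With sh-circMYBL2 the 5289 protein-coding genes with a mean of at least 5 FPKM of input RNA had a median ratio of 0.650, zeros included. MALAT1 was at 0.00707, with 0.662% of them below it, and NEAT1 at 0.0112, with 0.832% below. GIHCG (0.0487), PURPL (0.0559), PVT1 (0.0578), NORAD (0.101) and CCDC26 (0.111) had 2.44% to 5.37% below them. AC079466.1 (0.396), HCG11 (0.368) and AC006504.5 (0.468) lay within the range of coding genes, with 25.8% to 34.8% below. EBLN3P, a gene copied from an ancient bornavirus, was at 0.745 and AC005261.2 at 1.21, above 57.1% and 79.3% of coding genes. These places rest on the sh-circMYBL2 libraries and differed with sh-NC, where the coding median was 0.448. AC005261.2 was there at 0.231 on 7 reads, with 31.1% of coding genes below it, and EBLN3P at 0.606 on 10 reads, with 60.4% below. MALAT1 was at 0.00378, NEAT1 at 0.0277 and NORAD at 0.0287 with sh-NC, with 12.2%, 12.8% and 12.9% of coding genes below. With sh-NC 87.8% of these coding genes had a footprint read, against 99.4% with sh-circMYBL2. The coding genes below these RNAs with sh-NC were thus mostly genes without a read. Places with sh-NC and with sh-circMYBL2 are therefore not comparable. A footprint-sized read need not come from a ribosome, and the tables do not separate the sources.

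The third comparison asked whether footprints on members differed between the hairpins. Of 33 members that passed the filter of a mean of 1 RPKM, limma called none, with 8 at an unadjusted p under 0.05. In simulated libraries of this depth the fit called 0% of genes changed 4-fold, so a lack of calls does not show a lack of change. Over the 9431 genes tested 0.0% were called and 12.9% had an unadjusted p under 0.05. The voom fit on recovered reads called 0 members and 56 genes, or 0.594%. On leaving out an sh-circMYBL2 library, limma called 9 members higher without a and 8 without b, with 746 and 712 of all genes; without an sh-NC library it called 0. Of the 33, 15 had no read with sh-NC and passed through sh-circMYBL2, where depth is greater, so the count over these 33 is no support for a rise. Their median change was 1.52 on the log2(RPKM + 1) scale beside 0.56 for all genes tested, and with voom -0.03 beside 0.20.

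MALAT1 footprints were 34.7 RPKM (25 reads) and 29.5 (48 reads) under sh-NC and 61.8 (140) and 57.3 (559) under sh-circMYBL2. The groups did not overlap, as for 41.6% of all genes tested, and the change of 0.87 (SE 0.37, limma adjusted p = 0.469) did not pass. AC005261.2 had 1, 6, 22 and 106 reads, or 2.85 and 7.59 RPKM against 19.95 and 22.4 (change 1.94, SE 0.64, adjusted p = 0.342). NORAD had 2, 0, 10 and 51 reads and HCG11 had 0, 5, 7 and 42, so that each had 1 sh-NC library at 0. AC079466.1 had 6, 5, 9 and 50 reads and EBLN3P 5, 5, 10 and 49, changes of -0.16 and 0.01 with SE of 0.69 and 0.67. AC006504.5 had 0, 0, 1 and 32 reads, nearly all in the deepest library. NEAT1 had 6, 5, 6 and 8 reads, 3.20 and 1.18 RPKM against 1.02 and 0.316, a change of -0.89 (SE 0.69, adjusted p = 0.627).

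MIR155HG was the one member with a fall at an unadjusted p under 0.05. It had 2 and 5 reads under sh-NC and 0 and 4 under sh-circMYBL2, or 15.2 and 16.8 RPKM against 0 and 2.25 (change -3.24, SE 0.86, limma adjusted p = 0.323). The scaled ratio of its reads was 0.112, with a 95% counting interval of 0.0239 to 0.439. The smallest p-values in the other direction were those of AC073046.1 (0, 0, 2 and 11 reads), AC125603.1 (0, 0, 1 and 5), MAPKAPK5-AS1 (0, 0, 4 and 12), AC092747.4 (0, 0, 2 and 4) and AC005261.2.

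Translational efficiency, the change in footprints beyond that in input RNA, was called higher for 3 of the 33 members and lower for none, beside 5.31% of the 8260 genes tested (5.05% higher, 0.266% lower). An unadjusted p under 0.05 was reached by 11 of the 33, beside 19.6% of all genes tested. The 3 were AC073046.1 (change 4.67, SE 0.36, limma adjusted p = 0.0170), AC125603.1 (3.11, SE 0.37, adjusted p = 0.0237) and MAPKAPK5-AS1 (2.69, SE 0.41, adjusted p = 0.0303). None had a read with sh-NC. In simulated libraries this fit made 11 false calls, 10 of them in genes with no sh-NC read. Against a floor of 3 reads over both sh-NC libraries their scaled levels with sh-circMYBL2 were 0.846, 0.390 and 1.04 times the floor. For AC073046.1 and AC125603.1 no difference was therefore detectable at this depth. MAPKAPK5-AS1 lay barely above the floor, and the value of 1.04 leaves out the counting error of its own reads, so no lower bound follows. With voom on recovered reads 0 of them passed and 1 member was lower, MIR155HG (change -2.86, adjusted p = 0.0489), beside 2.13% of all genes tested. MIR155HG was at -2.80 with an adjusted p of 0.106 in the limma fit. When any library was left out, a group had a single library. Without an input RNA library, calls in translational efficiency were lost over all genes as well as in members. Without a footprint library, they rose over all genes as well as in members. The count of members is therefore not read in either case.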

How the data were processed

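Input RNA and ribosome footprints of MOLM-13 cells with sh-NC or sh-circMYBL2 were taken from 2 tables of 58302 genes. Ribosomal RNA was removed and libraries were built with a small RNA kit, per the labels' protocols. The submitters' processing notes name cutadapt, Bowtie, HISAT2, featureCounts, DESeq2 and hg38; versions, roles and the strand setting were not given in the sources used. The authors' deposited input RNA table holds FPKM and the deposited footprint table RPKM, scaled separately. In the footprint table the sh-circMYBL2 columns have no replicate number.

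Values times gene length were whole multiples of a step per library (tolerance 0.01 reads), which gave the reads printed. Totals on genes were 13505877 to 14604515 for input RNA and 80145 to 715019 for footprints. The 2 libraries of each group differed by more than sampling noise (chi-square of 1.92 to 11.6 per gene).

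Each table was fitted with limma 3.58.1 in R 4.3.3 (lmFit, eBayes with trend, two-sided) on log2(value + 1), genes with a mean of at least 1, Benjamini-Hochberg over all of them, threshold 0.05. Translational efficiency was the interaction of hairpin and assay over all 8 libraries, with 1 variance per gene for both assays. The pseudocount understates changes of low genes. An exact permutation test of 2 against 2 cannot go below 0.333, so none was used. Scripts were tested on simulated data with genes changed 1.5-, 2- and 4-fold. The input RNA fit called 32.8%, 56.7% and 84.8% of them, with 5 false calls. The footprint and translational efficiency fits called 0% at each fold, with 23 and 11 false calls.

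The members, gene lists and rules were chosen with earlier results of these data known. Named were all members called, the 12 most abundant, the 8 with most footprint reads, the 3 on either side of the mean of 5, up to 5 per direction by smallest p in footprints, and members of role lists; others named were chosen after their values were seen. Alternatives were other pseudocounts, no filter, quantile normalization, voom, leaving out each library and a replicate block. Positions and sequences are from RefSeq tables of GRCh38.p14.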

Additional observations from a re-analysis of the deposited data

How the results depend on the processing

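Alternatives not planned at the outset, the shares at minimum means of 20 FPKM, the members without MALAT1, those with at least 100 reads and the chromosome 8 grouping, were chosen after seeing the data. In input RNA all 28 called members kept their direction under every alternative run. Their groups do not overlap, so leaving out a library could not have reversed a direction. The counts of 5 higher and 23 lower became 0 and 3 without a filter on low values, where 97 of 29835 genes were called, and 11 and 33 with voom, where 3253 of 12489 genes were called against 1109. Leaving out 1 library gave 0 to 0 higher and 0 to 0 lower, and so no call in any gene. A lone library was then assumed to vary like the other group. The replicate block gave 0 higher and 0 lower, with adjusted p-values of 0.0502 to 0.105 for the 28. Replicate numbers showed no pairing (r = 0.0265 between deviations of same-numbered libraries over 12489 genes), so the libraries share only a number. No paired analysis was possible for footprints because 2 of their columns carry no number. Footprints gave 0 to 9 higher on leaving out 1 library, 9 without a and 8 without b, where 746 and 712 of all genes passed. The 3 higher in translational efficiency became 7 with a pseudocount of 0.1, 0 with 5, 1 with quantile normalization, 0 with voom and 0 to 14 on leaving out 1 library. The 0 lower became 1 with voom and 0 to 5 on leaving out 1. AC125603.1 turned to -0.16 in translational efficiency with voom (adjusted p = 0.906). The median footprint change of all genes, 0.56, was 1.03 with a pseudocount of 0.1, 0.24 with 5, 0.18 with quantile normalization and 0.20 with voom. A minimum mean of 2 gave 270 lincRNAs and one of 10 gave 54. The members' median ratio of footprints to input RNA with sh-circMYBL2, 0.121 over the 56 above 0, was 0.322 over the 20 with at least 10 footprint reads. Over the members named, 486 values under alternatives kept their side of the threshold, 187 no longer passed and 36 newly passed. A further 1 changed sign where the main or the alternative fit made a call. Sign changes without a call in either fit are among the 486 and were not counted apart. The causes of these differences were not tested. Footprint depth limits most members: 50 of 108 had no read.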

Other observations

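FP236383.3 stood apart among the members. Its input RNA was 2.20 and 5.42 FPKM in the sh-NC libraries (27 and 72 reads), then 4.84 and 30.6 in those of sh-circMYBL2 (62 and 410 reads), so 1 library differed 6.32-fold from its partner. The next largest ratio between libraries of a group, apart from the 2.46-fold one of its own sh-NC pair, was 1.95, in AC011445.2 (18 and 10 reads). The change of FP236383.3 was 1.58 and did not pass in the limma fit.

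Within the spans of the members on chromosome 8, small RNA genes were read in input RNA as well. MIR3686, within CCDC26, was at 21.0 and 35.6 FPKM for sh-NC, then 13.4 and 11.2 for sh-circMYBL2 (log2 change -1.10, limma adjusted p = 0.0871). MIR1205, within PVT1, was at 109 to 122 FPKM in the 4 libraries (-0.09, adjusted p = 0.368), while PVT1 fell by 0.39. Neither passed the threshold, and the differences between the members and the small RNA genes were not tested.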
